A study of Homo sapiens with 8 samples.

Results

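The m6A peaks described here lay in 3′ untranslated regions (UTRs) and did not reach a stop codon. They were chosen by the authors' feature label alone: a peak was taken if its label held the 3′ UTR and held neither stop codon, coding sequence nor 5′ UTR. The rule took 1850 of the 13219 peaks of DF2 siRNA cells, or 14.0% (13.4 to 14.6%), and 2311 of the 15730 peaks of control cells, or 14.7% (14.1 to 15.3%). Of these 3′ UTR-only peaks, 75 in DF2 siRNA cells and 90 in control cells also carried a non-coding RNA label, which the rule allows. The rule uses no measured value, but a wide peak is more likely to touch the stop codon and so to be left out. The range in parentheses after a share is its 95% Clopper-Pearson (exact) confidence interval, which takes in counting error alone.

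The cells were U2OS, an established human bone osteosarcoma line, treated with siRNA against YTHDF2 (DF2 siRNA) or left as controls, which the labels do not describe further. The 8 libraries formed 4 groups of 2: m6A immunoprecipitate of DF2 siRNA cells (DF2 siRNA #1 and #2), input RNA of the same cells, and m6A immunoprecipitate and input RNA of control cells (control 1 and control 2). All were made from cytoplasmic RNA in fragments of about 100 nt, and the labels say neither whether #1 and #2 are different siRNAs nor whether the pairs came from separate cultures. The authors gave 1 peak list per condition, tied to both of its immunoprecipitates, so differences between conditions have no replicate check and are described without p-values. Library depths are unknown, and in bulk RNA of this kind fewer modified cells and less modified RNA per cell cannot be told apart. YTHDF2 itself held no 3′ UTR-only peak in either list, and a peak list does not measure RNA level, so the knockdown was not analysed here. Among 30 genes of bone matrix and osteoblasts, 12 carried a peak of any kind in DF2 siRNA cells and 13 in control cells. Among 28 marker genes of blood, epithelial and neural cells, 4 did in DF2 siRNA cells and 6 in control cells.

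N6-methyladenosine is placed on mRNA in the nucleus by the METTL3-METTL14 methyltransferase, mostly in the sequence context DRACH, and is densest around stop codons and in long last exons. The 3′ UTR beyond the stop codon holds binding sites for microRNAs and for RNA-binding proteins that set the stability, translation and position of an mRNA. YTHDF2 is a cytoplasmic reader that binds m6A and recruits the CCR4-NOT deadenylase complex, which removes the poly(A) tail and so starts decay of the mRNA.

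Some of these peaks cover other annotated RNA features, and the sequences below are shown because they place a peak on named bases of its 3′ UTR. Of the 1562 microRNA hairpins in the RefSeq table (GRCh38.p14), 4 shared at least 1 base with a same-strand 3′ UTR-only peak of either list. The mature sequences shown lay wholly inside such a peak. Their mature sequences follow, 5′ to 3′, with the seed (bases 2 to 8) in capitals, and no 2 of them share a seed.
hsa-miR-378i (chr22:41923271-41923291, minus strand, in the TNFRSF13C peak): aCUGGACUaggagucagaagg
hsa-miR-4800-3p (chr4:2250091-2250109, minus strand, in the MXD4 peak): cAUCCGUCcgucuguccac
hsa-miR-3658 (chr1:165907923-165907944, plus strand, in the UCK2 peak): uUUAAGAAaacaccauggagau
hsa-miR-922 (chr3:197674498-197674520, minus strand, in the KIAA0226 peak): gCAGCAGAgaauaggacuacguc

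The MXD4 peak (MXD4 is a partner of MAX that represses MYC target genes) had the same 600-nt interval in both lists, with a fold enrichment of 52.7 in DF2 siRNA cells and 26.0 in control cells. Fold enrichment is the authors' ratio for a peak and serves here to rank and describe peaks within a list. The TNFRSF13C peak (the receptor for the B cell factor BAFF) had 6.69 over 800 nt in DF2 siRNA cells and 17.3 over 1000 nt in control cells. In control cells alone, the mature hsa-miR-3658 lay in a 3′ UTR-only peak of UCK2, a uridine-cytidine kinase, at 17.6. Also in control cells alone, the mature hsa-miR-922 lay in one of KIAA0226 (Rubicon, a negative regulator of autophagy), at 82.1. The DF2 siRNA peak over the hsa-miR-922 hairpin in KIAA0226 touched the stop codon, and no DF2 siRNA peak covered that of hsa-miR-3658. A peak over a hairpin says nothing of whether the microRNA is made or modified.

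Bases of the m6A context could be read only where a RefSeq window of 300 bases around a gene start lay wholly inside a 3′ UTR-only peak on the same strand, which held for 4 windows. The windows surround the starts of other RefSeq genes than those that name the peaks. They are LOC124904789 (in the GNG7 peak), LINC01619 (BTG1), LOC105373378 (ZNF275) and LOC124903348 (YLPM1). The motif GGAC followed by A, C or T, a common form of DRACH, was searched on the sense strand only, and its 3 forms cannot overlap. All 4 windows held at least 1, against 58.7% of all 35116 RefSeq windows of that length, so a match there is common. The sites below are shown in 25 bases, as DNA on the sense strand with 1 motif per site in capitals. The ZNF275 stretch holds a second match, 7 bases downstream of the first, left in lower case. The YLPM1 window holds another site, at chr14:74858261-74858285, that is not shown.
GNG7 (chr19:2513702-2513726, minus strand): tgactctgaaGGACTctgggaggtg
BTG1 (chr12:92142909-92142933, minus strand): gtcaaaacatGGACAcattcacagg
ZNF275 (chrX:153351989-153352013, plus strand): agaacatgatGGACCacggacacca
YLPM1 (chr14:74858319-74858343, plus strand): tgatgacctaGGACTtgcctcacac

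The peak over the GNG7 site (GNG7 is a G protein gamma subunit) had a fold enrichment of 9.24 in DF2 siRNA cells and 18.6 in control cells. At BTG1, an antiproliferative partner of the CCR4-NOT deadenylase, the values were 8.18 in DF2 siRNA cells and 20.9 in control cells. At the zinc finger gene ZNF275 they were 13.2 in DF2 siRNA cells and 22.3 in control cells. All 3 were lower in DF2 siRNA cells, but their intervals differed between the lists. The YLPM1 window lay inside a 3′ UTR-only peak in control cells, at 5.38, and inside none in DF2 siRNA cells. Which base was methylated was not measured.

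The 3′ UTR-only peaks had lower fold enrichment than the peaks at stop codons. Their median fold enrichment was 13.7 in DF2 siRNA cells (interquartile range 9.44 to 23.4) and 15.1 in control cells (10.1 to 27.1). Stop codon peaks had medians of 26.7 in DF2 siRNA cells and 33.1 in control cells, and all peaks 17.7 in DF2 siRNA cells and 20.8 in control cells. In both lists, 5′ UTR peaks were lower still, at 11.0 in DF2 siRNA cells and 11.1 in control cells. A fold enrichment above the median of its list was found for 35.8% of the 3′ UTR-only peaks of DF2 siRNA cells and 36.0% of those of control cells. Of the strongest 10% of peaks by fold enrichment, 77 in DF2 siRNA cells and 100 in control cells were 3′ UTR-only. That is 4.16% of the 3′ UTR-only peaks of DF2 siRNA cells and 4.33% of those of control cells.

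**Figure D1:**
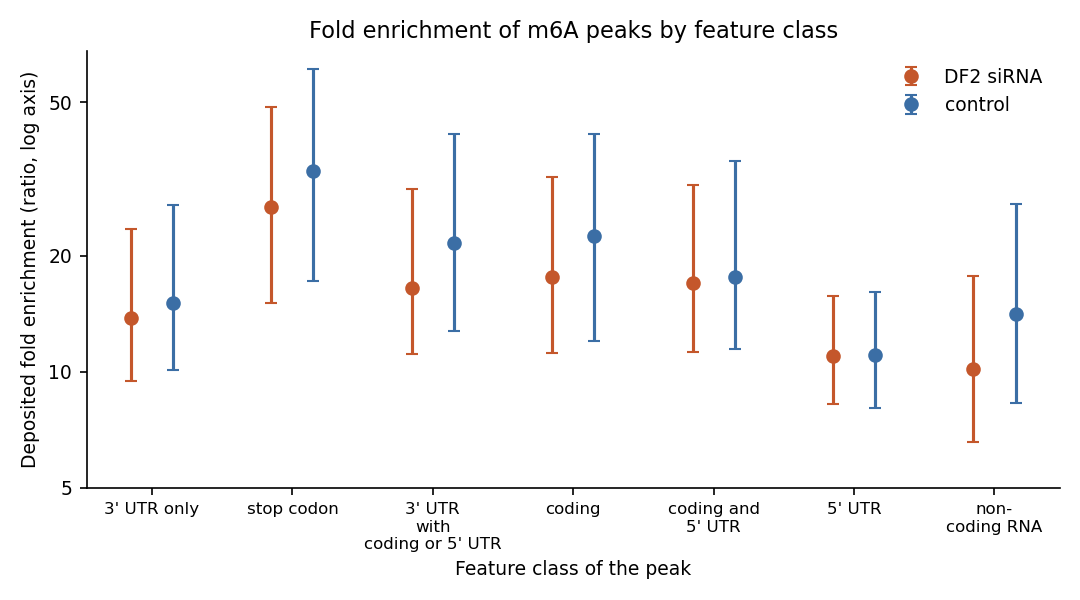
Deposited fold enrichment (ratio, log axis) of m6A peaks by feature class, DF2 siRNA in orange and control in blue; points are medians and bars interquartile ranges over the peaks of a class. The 3′ UTR-only peaks, with medians of 13.7 in DF2 siRNA and 15.1 in control, lie below stop codon peaks (26.7 in DF2 siRNA, 33.1 in control) and above 5′ UTR peaks (11.0 in DF2 siRNA, 11.1 in control).

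The gap was also present between peaks of equal width. Over all widths, the median exonic width of 3′ UTR-only peaks was 596 nt in DF2 siRNA cells and 600 nt in control cells, against 800 nt for stop codon peaks in both. Among peaks of exactly 200 nt, the 3′ UTR-only medians were 8.29 in DF2 siRNA cells and 7.997 in control cells, against stop codon medians of 10.2 in DF2 siRNA cells and 10.8 in control cells. Among peaks of exactly 400 nt, the median fold enrichment of 3′ UTR-only peaks was 11.2 in DF2 siRNA cells and 11.0 in control cells, against stop codon medians of 12.9 in DF2 siRNA cells and 12.8 in control cells. Among peaks of exactly 800 nt, the 3′ UTR-only medians were 19.1 in DF2 siRNA cells and 24.8 in control cells, against stop codon medians of 29.7 in DF2 siRNA cells and 36.9 in control cells. Stop codon peaks had the higher median at each of these widths in both lists.

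Most 3′ UTR-only peaks lay within 1 exon and towards the 3′ end of the gene. Their blocks crossed an exon junction in 3.89% of peaks of DF2 siRNA cells (3.06 to 4.88%) and 5.19% of those of control cells (4.32 to 6.18%), against 50.1% of stop codon peaks in DF2 siRNA cells and 56.4% in control cells. The median genomic distance from the peak to the end of the RefSeq gene was 1014 bp in DF2 siRNA cells (n = 1806 with a matched gene) and 857 bp in control cells (n = 2253). For stop codon peaks it was 2140 bp in DF2 siRNA cells and 2268 bp in control cells. A distance within 1000 bp was found for 47.0% of the 3′ UTR-only peaks of DF2 siRNA cells and 48.4% of those of control cells, against 31.9% of stop codon peaks in DF2 siRNA cells and 30.5% in control cells. The feature label defines the position of these peaks, so their nearness to the gene end follows in part from the rule. RefSeq gene ends can also differ from those of the annotation behind the lists.

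The 10 3′ UTR-only peaks of highest fold enrichment in DF2 siRNA cells included those of the transporter SLC7A5 and the mTORC1 subunit RPTOR. They also included those of the zinc finger gene ZNF362 and the decay factor UPF1. SLC7A5 is the light chain of the LAT1 transporter for large neutral amino acids. Its peak at chr16:87830168-87831767 had the highest 3′ UTR-only value in DF2 siRNA cells, 258. In control cells the same 1600-nt interval had 195. Its score, a whole number that the authors did not define, was also the highest of all peaks of either list, at 29600 in DF2 siRNA cells and 53084 in control cells. SLC7A5 had a stop codon peak 400 bp upstream in both lists.

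RPTOR encodes Raptor, the scaffold of the mTORC1 kinase complex that senses amino acids. Its 1789-nt interval at chr17:80964583-80966371 had a fold enrichment of 163 in DF2 siRNA cells and 120 in control cells. The zinc finger gene ZNF362 had its only peak in the 3′ UTR, with 203 in DF2 siRNA cells and 91.0 in control cells on the same 800 nt. UPF1, the helicase of nonsense-mediated decay, had 133 in DF2 siRNA cells and 88.4 in control cells on the same 1400 nt. These 4 peaks were higher in DF2 siRNA cells, by more than 2 times at ZNF362 only, but they were picked for their DF2 siRNA value, so this direction is no result.

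The leading peaks of UHRF1, FAM104A and H2AFX had close values in both lists. UHRF1, which reads hemimethylated DNA and recruits DNMT1, had 162 over 600 nt in DF2 siRNA cells and 158 over 800 nt in control cells, and no other peak in either list. FAM104A had 144 in DF2 siRNA cells and 137 in control cells on the same 1400 nt. H2AFX, the histone variant phosphorylated at DNA breaks, had 101 in DF2 siRNA cells and 92.7 in control cells. The peak of PIP5K1C, a kinase that makes PIP2, was named for its width of 2600 nt in both lists and differed more, with 100.1 in DF2 siRNA cells and 61.2 in control cells.

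Other leading peaks, picked for their control value, were lower in DF2 siRNA cells. INF2, a formin that builds actin filaments, had 120 in DF2 siRNA cells and 207 in control cells, the highest 3′ UTR-only value of control cells. MDM2, the ubiquitin ligase that restrains p53, had 46.5 over 800 nt in DF2 siRNA cells and 158 over 1200 nt in control cells. The overlapping peak listed for RP11-611O2.3, at chr12:68841946-68842384, covers part of the same RNA and had 51.3 in DF2 siRNA cells and 159 in control cells, so the pair is 1 signal under 2 names. KIAA1161 had 77.0 in DF2 siRNA cells and 177 in control cells. CAMK2G, a subunit of calmodulin-dependent kinase II, had 92.4 in DF2 siRNA cells and 152 in control cells. FAM212B had 34.6 in DF2 siRNA cells and 146 in control cells on the same 1200 nt.

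Overlap with the other list was common but not complete. Of the 3′ UTR-only peaks of DF2 siRNA cells, 86.1% (84.4 to 87.6%) had at least 1 base in common with a same-strand peak of control cells, and 258 had none. Of those of control cells, 61.6% (59.6 to 63.6%) had a base in common with a DF2 siRNA peak, and 888 had none. Peaks without a partner made up 12.5% of all DF2 siRNA peaks and 28.1% of all control peaks. The DF2 siRNA share without a partner, 13.9%, was thus near that background, whereas in control cells 38.4% of 3′ UTR-only peaks lacked a partner. Stop codon peaks overlapped more often, at 93.3% in DF2 siRNA cells and 83.6% in control cells. The overlap of 5′ UTR peaks was lower than that of 3′ UTR-only peaks, at 64.2% in DF2 siRNA cells and 56.4% in control cells. Non-coding RNA peaks had 88.7% in DF2 siRNA cells and 52.8% in control cells.

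The overlap rose with the score of the peak. In the lowest of 5 equal score classes of its list, 78.1% of the 3′ UTR-only peaks of DF2 siRNA cells and 26.1% of those of control cells had a partner. Over all peaks of that class the shares were near these, at 75.2% in DF2 siRNA cells and 26.4% in control cells. In the highest class the 3′ UTR-only shares were 95.9% in DF2 siRNA cells and 92.0% in control cells, against 98.1% and 97.1% of all peaks. The lowest class held 25.9% of the 3′ UTR-only peaks of DF2 siRNA cells and 26.5% of those of control cells, against 8.09% of stop codon peaks in DF2 siRNA cells and 6.41% in control cells. Within a class the control shares of 3′ UTR-only and stop codon peaks differed by less than the pooled ones: 58.3% (54.2 to 62.4%) against 63.8% (60.5 to 67.0%) in the second class. All control peaks of that class had 64.2%. What part the score has in the difference was not tested.

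**Figure D2:**
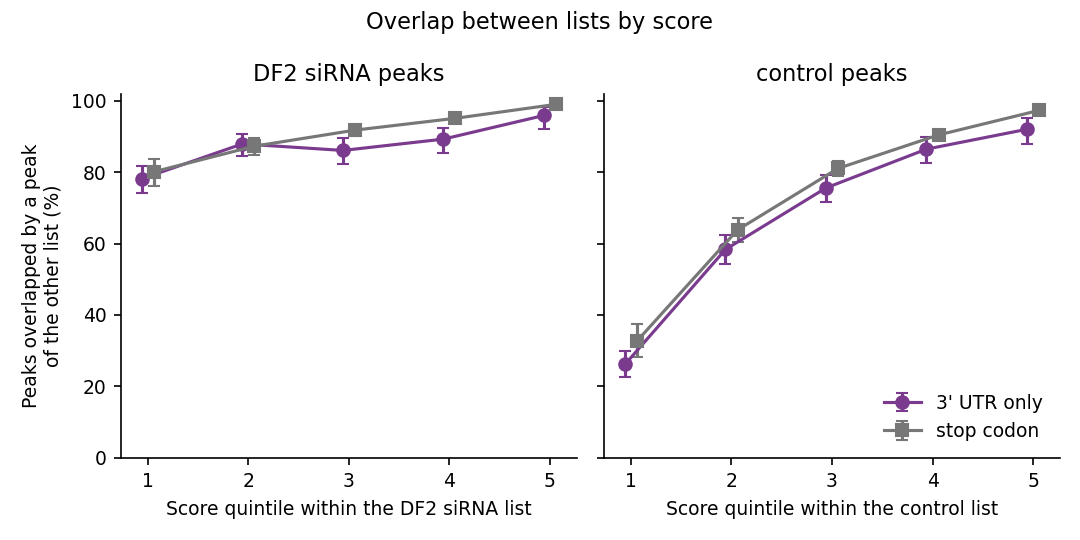
Share of peaks (%) with at least 1 base of a peak of the other list on the same strand, by quintile of the deposited score (1 lowest, 5 highest), left for DF2 siRNA peaks and right for control peaks; bars are 95% exact binomial intervals. In control the 3′ UTR-only share (purple) is 26.1% in the first quintile and 92.0% in the fifth, and runs below the stop codon share (grey) in each quintile. The share over all control peaks, not drawn, is 26.4% in the first quintile and 97.1% in the fifth.

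A partner did not always carry the same label. Of the 1592 3′ UTR-only peaks of DF2 siRNA cells with a control partner, 1291 (81.1%) lay on a 3′ UTR-only peak and 294 (18.5%; 16.6 to 20.5%) on a control peak that also touched the stop codon. Those 294 had a median width of 400 nt and their control partners 1200 nt. In the other direction, 148 of the 1423 control peaks with a partner (10.4%; 8.86 to 12.1%) lay on a DF2 siRNA peak that touched the stop codon, with median widths of 536 nt for these control peaks and 1000 nt for the partners. TGFB2, for example, had a 200-nt 3′ UTR-only peak at 7.68 in DF2 siRNA cells under a control stop codon peak at 56.4. CTNNB1, encoding β-catenin, had one of 400 nt at 26.7 in DF2 siRNA cells under a control stop codon peak at 32.8. The label of these peaks thus differed between the lists together with their width, and a shift of m6A along the mRNA was not tested.

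The 3′ UTR-only peaks without a partner were weak in DF2 siRNA cells and included stronger ones in control cells. Their median fold enrichment was 9.83 in DF2 siRNA cells and 10.02 in control cells, with a median width of 400 nt in both. The highest in DF2 siRNA cells was 24.9 in EFR3B, which anchors a phosphatidylinositol 4-kinase at the plasma membrane. TCF3, a basic helix-loop-helix factor, followed at 24.5, PPP2R5D, a regulatory subunit of phosphatase PP2A, at 22.3, and FAM83H at 21.9. The next were SUGP2 at 19.5, HR at 19.0, DGKD, a diacylglycerol kinase, at 18.9, and RAB11B, a GTPase of recycling endosomes, at 18.5.

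In control cells the highest 3′ UTR-only peak without a partner was at 103 in the zinc finger gene ZNF107, over 1800 nt. ADAM10, the protease that sheds the ectodomains of Notch and other membrane proteins, had 81.1 over 800 nt, at 4600 bp from its stop codon peak. The cytochrome oxidase subunit gene COX6B2 had 68.9, the zinc finger gene ZNF441 58.3 and FAM122A, an inhibitor of PP2A, 56.0. RP11-373L24.1 had 49.1, the ubiquitin ligase gene SHPRH 46.7 and DBNL, an actin-binding adaptor, 42.8. All 8 control values were above the highest DF2 siRNA value without a partner. ZNF107, ZNF441, COX6B2, RP11-373L24.1 and DBNL had no peak of any kind in DF2 siRNA cells, while ADAM10, FAM122A and SHPRH had 1 elsewhere.

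By gene, 1590 of the 8556 genes with any DF2 siRNA peak held a 3′ UTR-only peak (18.6%), as did 1958 of the 9971 genes of control cells (19.6%). Both lists shared 1170 of them, which is 73.6% of the DF2 siRNA genes and 59.8% of the control genes. Of the 420 found in DF2 siRNA cells only, 332 had another kind of peak in control cells and 88 had none. Of the 788 found in control cells only, 511 had another kind of peak in DF2 siRNA cells and 277 had none. The same shares over all genes with any peak are not given here, so these counts have no background beside them.

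Many of these genes carried m6A in the 3′ UTR without a peak at the stop codon. A stop codon peak was present in 44.2% (41.7 to 46.6%) of the genes with a 3′ UTR-only peak in DF2 siRNA cells and 49.0% (46.8 to 51.3%) of those in control cells. Genes with peaks but no 3′ UTR-only peak had one more often, at 62.6% in DF2 siRNA cells and 60.2% in control cells. The 3′ UTR-only peak was the only peak of the gene in 558 genes of DF2 siRNA cells (35.1%) and 605 of control cells (30.9%). ZNF362, UHRF1 and FAM104A were such genes in both lists. Part of this follows from the rule, since a gene whose 3′ UTR signal joins the stop codon in 1 wide peak has no 3′ UTR-only peak.

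Where a gene held both kinds, the 3′ UTR-only peak was usually the weaker and lay downstream. Its fold enrichment exceeded that of the stop codon peak in 163 of 702 genes of DF2 siRNA cells (23.2%; 20.1 to 26.5%) and 243 of 960 genes of control cells (25.3%; 22.6 to 28.2%), comparing the strongest peak of each kind. The median ratio of 3′ UTR-only to stop codon peak was 0.464 in DF2 siRNA cells and 0.428 in control cells. The genomic gap to the nearest stop codon peak had a median of 1400 bp in DF2 siRNA cells (interquartile range 400 to 3800 bp, 833 peaks) and 1600 bp in control cells (600 to 4200 bp, 1166 peaks). It exceeded 1000 bp for 54.4% of these peaks in DF2 siRNA cells and 58.6% in control cells. It was 200 bp, the smallest gap found, for 122 peaks (14.6%) of DF2 siRNA cells and 163 (14.0%) of control cells. Of the gaps, 78.2% in DF2 siRNA cells and 79.2% in control cells were multiples of 200 bp. Peak ends thus mostly fell in steps of 200, and a finer spacing was not resolved.

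**Figure D3:**
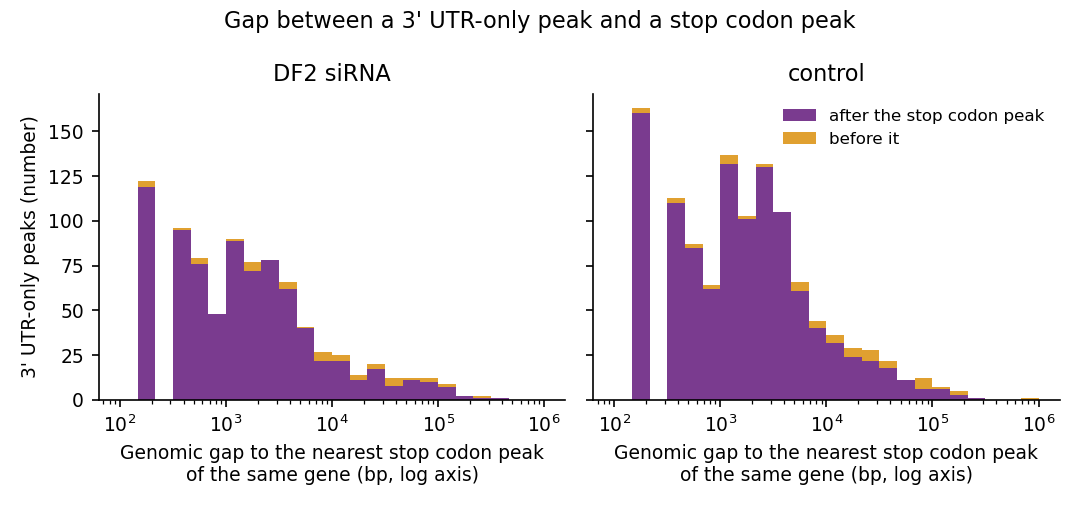
Genomic gap (bp, log axis) between each 3′ UTR-only peak and the nearest stop codon peak of its gene, DF2 siRNA left (833 peaks) and control right (1166 peaks); bar height is the number of peaks, purple downstream and yellow upstream of the stop codon peak. In both panels 1 bar stands at the smallest gap of 200 bp and most other peaks lie between 400 and 4200 bp.

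The 3′ UTR-only peak lay upstream of the nearest stop codon peak for 42 peaks of DF2 siRNA cells and 57 of control cells. The largest such gaps were 257526 bp in TTLL5, a tubulin glutamylase gene, in DF2 siRNA cells and 738179 bp in RABGAP1L in control cells, with fold enrichments of 3.71 for the TTLL5 peak and 5.10 for the RABGAP1L peak. MAP3K13 and KIF13A in control cells were of the same kind, with gaps of 188067 and 179594 bp. Among downstream peaks, C9orf3 had gaps of 325517 bp in DF2 siRNA cells and 312934 bp in control cells, with fold enrichments of 22.4 in DF2 siRNA cells and 42.8 in control cells. Such gaps can span introns, so they do not measure a length of mRNA.

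More than 1 3′ UTR-only peak was found in 214 genes of DF2 siRNA cells (13.5%) and 284 of control cells (14.5%). CHST12, a chondroitin sulfotransferase gene, held 5 in DF2 siRNA cells, with fold enrichments between 7.44 and 21.9, and 4 in control cells, between 7.74 and 26.4. SNX29 held 5 in DF2 siRNA cells and 2 in control cells. Huntingtin, HTT, held 4 within 3128 bp in DF2 siRNA cells and 2 in control cells. RPAP2, a phosphatase of the RNA polymerase II tail, held 2 in DF2 siRNA cells and 7 in control cells, the most of any gene. NRDE2 held 3 in DF2 siRNA cells and 6 in control cells, and NQO2, a quinone reductase gene, 4 in DF2 siRNA cells and 5 in control cells. Several peaks of 1 gene share its RNA and are not independent.

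At 562 intervals that were identical and 3′ UTR-only in both lists, the fold enrichment was on balance lower in DF2 siRNA cells. The median was 19.0 in DF2 siRNA cells and 23.9 in control cells, and the median ratio of DF2 siRNA to control was 0.853 (interquartile range 0.600 to 1.17). All 4643 identical intervals had a median ratio of 0.864 and stop codon intervals 0.883, so the 3′ UTR-only value was near that of the whole. The ratio was at least 2 at 12 intervals (2.14%), against 2.65% of all identical intervals. It was at most 0.5 at 91 (16.2%), against 16.1% of all. Neither share stood away from its background. The lists were processed separately by the authors, so a median ratio other than 1 at identical intervals is read only beside that of all identical intervals.

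**Figure D4:**
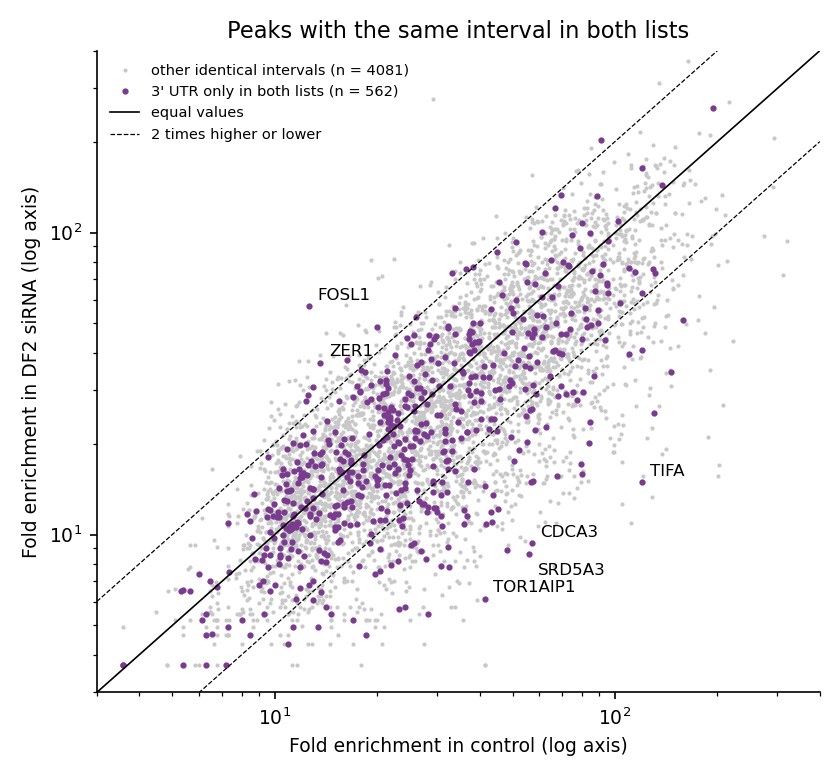
Deposited fold enrichment in DF2 siRNA (vertical) against control (horizontal), both log axes, at 4643 intervals identical in both lists; purple points are the 562 that are 3′ UTR-only and grey points the others, the solid line marks equal values and dashed lines a ratio of 2 or 0.5. FOSL1 stands above the upper dashed line and TIFA, CDCA3, SRD5A3 and TOR1AIP1 below the lower one, with 12 purple points at or above the upper and 91 at or below the lower line.

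The highest ratio among the 3′ UTR-only intervals was at FOSL1, a Fos-family subunit of the AP-1 transcription factor. Its 887-nt interval at chr11:65892049-65892935 had a fold enrichment of 57.0 in DF2 siRNA cells and 12.6 in control cells, a ratio of 4.52. Its score was 108 in DF2 siRNA cells and 148 in control cells, a ratio of 0.730, where the median score ratio of 3′ UTR-only intervals was 0.422. ZER1, a substrate receptor of a cullin 2 ubiquitin ligase, had 37.1 in DF2 siRNA cells and 13.6 in control cells. RANGAP1, the GTPase activator of Ran in nuclear transport, had 48.8 in DF2 siRNA cells and 20.0 in control cells. ATXN7L3, of the SAGA deubiquitinase module, had 30.7 in DF2 siRNA cells and 13.0 in control cells. HSPG2 (perlecan) had 37.9 in DF2 siRNA cells and 16.3 in control cells. The score ratios of these 5 genes, between 0.563 and 1.26, were all above that median. The genes were picked for their fold enrichment ratio and the scores belong to the same peaks, so this is no separate support.

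The lowest ratio among the 3′ UTR-only intervals was at TIFA, an adaptor that activates NF-κB through TRAF6. Its 800-nt interval at chr4:112275992-112276791 had a fold enrichment of 14.9 in DF2 siRNA cells and 120 in control cells, and a score of 27 in DF2 siRNA cells and 454 in control cells. TOR1AIP1, an inner nuclear membrane protein that activates torsin, had 6.13 in DF2 siRNA cells and 41.5 in control cells. SRD5A3, a polyprenol reductase of dolichol synthesis, had 8.61 in DF2 siRNA cells and 56.0 in control cells. CDCA3 had 9.37 in DF2 siRNA cells and 57.2 in control cells. The adhesion receptor gene EMR2 had 8.85 in DF2 siRNA cells and 48.1 in control cells, and the calpain gene CAPN5 5.46 in DF2 siRNA cells and 28.2 in control cells. All 6 scores were also low in DF2 siRNA cells, between 6 and 27, against 56 to 454 in control cells. Scores were lower in DF2 siRNA cells in general, with a median score ratio of 0.425 over all 4643 identical intervals. These genes too were picked for their ratio, so the scores are no separate support.

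Gene groups were read as the number of their genes with a 3′ UTR-only peak among those with any peak, beside the 18.6% of DF2 siRNA genes and 19.6% of control genes in all. No list was tested, and most rest on few genes. Receptors and kinases of growth signalling had 9 of 25 genes in DF2 siRNA cells and 9 of 24 in control cells. The insulin and IGF receptors, INSR and IGF1R, had strong peaks of like value: 51.4 in DF2 siRNA cells and 51.3 in control cells at INSR, and, on the same 1600 nt, 66.5 in DF2 siRNA cells and 68.0 in control cells at IGF1R. AKT2, a kinase downstream of both, had 34.0 over 1200 nt in DF2 siRNA cells and 15.3 over 600 nt in control cells. MET, the HGF receptor, had 11.3 in DF2 siRNA cells and 28.1 in control cells at overlapping peaks. EGFR had a 3′ UTR-only peak in control cells, at 13.9, and none in DF2 siRNA cells.

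Growth factors had 6 of 17 genes in DF2 siRNA cells and 4 of 17 in control cells. GDF11, a TGF-β family ligand, had 2 peaks in DF2 siRNA cells, at 59.0 and 14.7, inside the stretch of 1 control peak of 3200 nt at 77.3. LIF, a cytokine of the IL-6 family, had 18.6 in DF2 siRNA cells and 23.3 in control cells, and EDN1 (endothelin 1) 8.15 in DF2 siRNA cells and 22.8 in control cells. FGF2 had 2 in control cells, at 21.7 and 18.6, and none in DF2 siRNA cells. In the Wnt, Notch, Hippo and TGF-β list the counts were 7 of 37 in DF2 siRNA cells and 12 of 38 in control cells. SKI, a repressor of SMAD signalling, had 50.3 in DF2 siRNA cells and 89.4 in control cells on the same 1800 nt. NOTCH1 had 31.5 in DF2 siRNA cells and 21.2 in control cells on the same interval. SMAD3, a signal transducer of TGF-β, had its higher peak at 29.7 in DF2 siRNA cells and 38.9 in control cells, and the receptor TGFBR1 28.0 in DF2 siRNA cells and 45.9 in control cells. The 7 genes with a 3′ UTR-only peak in control cells only, AXIN2, FZD1, FZD4, LRP6, SMAD2, SMAD5 and SMAD7, had 1 each, between 4.83 and 28.9, with no DF2 siRNA partner. Over all control cells' peaks, 38.4% of the 3′ UTR-only ones and 28.1% of all lacked a partner.

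Chromatin regulators had 13 of 40 genes in DF2 siRNA cells and 14 of 42 in control cells, 10 of them in both. KDM2A, a histone H3 lysine demethylase, had 37.1 in DF2 siRNA cells and 24.2 in control cells. KMT5B, a histone H4 methyltransferase listed as SUV420H1, had 11.9 in DF2 siRNA cells and 43.4 in control cells on the same 800 nt. SETD7 had 56.6 in DF2 siRNA cells, under a wider control peak at 98.1 that also held coding sequence.

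Among genes of the m6A pathway, 1 of 20 in DF2 siRNA cells and 5 of 20 in control cells held a 3′ UTR-only peak. IGF2BP2, a reader that stabilises mRNA, had peaks at 11.3 and 12.2 in DF2 siRNA cells and 1 at 13.2 in control cells. Its peak at 12.2 had no control partner. RBM15 and RBM15B, adaptors of the methyltransferase, and the readers YTHDC2 and YTHDF1 had peaks between 8.24 and 12.6 in control cells and none in DF2 siRNA cells. All 4 were below the median fold enrichment of 3′ UTR-only peaks in that list and had no DF2 siRNA partner. In control cells 38.4% of 3′ UTR-only peaks and 28.1% of all peaks lacked a partner. Genes of deadenylation and decay had 4 of 19 in DF2 siRNA cells and 4 of 20 in control cells. CNOT2, a subunit of the CCR4-NOT complex, had 31.0 in DF2 siRNA cells and 69.6 in control cells on the same 393 nt. UPF2, the partner of UPF1, had 20.7 in DF2 siRNA cells and 23.4 in control cells, and PAN3, of the PAN2-PAN3 deadenylase, had 42.6 in control cells only.

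The microRNA pathway and 3′ UTR-binding proteins had 6 of 24 genes in DF2 siRNA cells and 9 of 24 in control cells. MSI2 (Musashi 2) had 26.4 in DF2 siRNA cells and 50.3 in control cells. TNRC6C, a GW182 protein that links Argonaute to deadenylases, had its higher peak at 19.5 in DF2 siRNA cells and 45.8 in control cells, and the Argonaute AGO4 25.3 in DF2 siRNA cells and 33.3 in control cells. DGCR8, the partner of Drosha, had 75.0 in control cells, on a DF2 siRNA peak at 67.5 that touched a stop codon.

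Solute carriers had 7 of 26 genes in DF2 siRNA cells and 9 of 27 in control cells, and all 7 were shared. Besides SLC7A5, the cationic amino acid transporter SLC7A1 had 42.8 in DF2 siRNA cells and 25.2 in control cells on the same 1000 nt. SLC38A2, a transporter of neutral amino acids, had 20.5 in DF2 siRNA cells and 26.8 in control cells on the same 600 nt, with scores of 1062 in DF2 siRNA cells and 3124 in control cells. The ratio of these scores was 0.340, beside a median of 0.425 over all identical intervals. In the autophagy and mTOR list the counts were 8 of 25 in DF2 siRNA cells and 3 of 22 in control cells. MTOR had 17.7 in DF2 siRNA cells and 25.4 in control cells, and TSC1, which restrains mTORC1, had its most distal peak at 15.9 in DF2 siRNA cells and 80.0 in control cells on the same 711 nt. Of the 5 genes found in DF2 siRNA cells only, WIPI2 at 101, SESN2 at 16.0 and RICTOR at 11.6 lay on control peaks that touched the stop codon. The peaks of ATG13 and ATG7, at 9.82 and 7.68, had no control partner.

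Ubiquitin ligases had 7 of 29 genes in DF2 siRNA cells and 7 of 32 in control cells, among them BTRC, with its higher peak at 20.8 in DF2 siRNA cells and 34.5 in control cells. SMURF1 had its higher peak at 22.2 in DF2 siRNA cells and 24.2 in control cells. Immediate early genes and genes with AU-rich elements had 7 of 39 in DF2 siRNA cells and 6 of 38 in control cells. Besides FOSL1, MAFF had 32.4 in DF2 siRNA cells and 21.3 in control cells on the same 600 nt, and SGK1 15.2 in DF2 siRNA cells and 24.9 in control cells. Cell cycle genes had 3 of 20 in DF2 siRNA cells and 3 of 15 in control cells, and stress genes and chaperones 2 of 24 in DF2 siRNA cells and 4 of 29 in control cells. Membrane traffic genes had 2 of 20 in DF2 siRNA cells and 1 of 20 in control cells. Ribosomal protein genes carried few peaks of any kind: 2 of 6 genes with a peak had a 3′ UTR-only one in DF2 siRNA cells, RPL37 at 41.6 and RPL27A at 16.7, and 5 of 13 in control cells. For oxidative phosphorylation these were 1 of 2 genes in DF2 siRNA cells and 1 of 5 in control cells, SCO1 in both.

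Bone matrix genes had 4 of 12 genes in DF2 siRNA cells and 5 of 13 in control cells. The collagen gene COL5A1 had 41.2 over 1000 nt in DF2 siRNA cells and 98.0 over 1200 nt in control cells. RUNX2, the osteoblast transcription factor, had 11.1 over 600 nt in DF2 siRNA cells and 40.1 over 800 nt in control cells. COL6A1 had 18.8 in DF2 siRNA cells and 15.2 in control cells on the same 543 nt. Markers of other cell types had 1 of 4 genes in DF2 siRNA cells (CD68, at 6.92) and 2 of 6 in control cells (PECAM1 and SYP, all at most 5.38). Zinc finger genes whose symbols start with ZNF, a group added after the data were seen, had 71 of 313 genes in DF2 siRNA cells and 84 of 327 in control cells. Of their 85 3′ UTR-only peaks in DF2 siRNA cells 81 had a control partner, and of their 106 in control cells 58 had a DF2 siRNA partner. Over all 3′ UTR-only peaks these shares were 86.1% in DF2 siRNA cells and 61.6% in control cells.

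**Figure D5:**
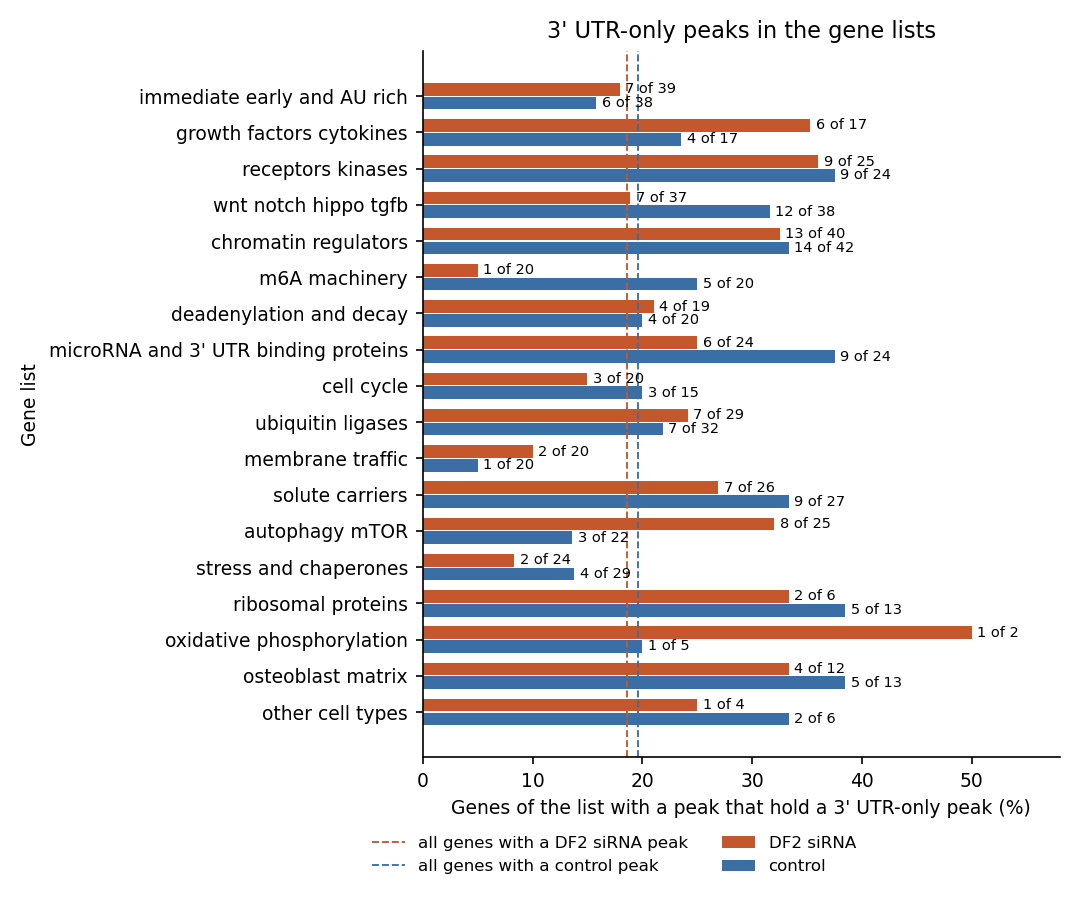
Share of the genes of each list (%) that hold a 3′ UTR-only peak, among its genes with any peak, DF2 siRNA in orange above control in blue; bars are labelled with the counts and dashed lines mark all genes with a peak (18.6% in DF2 siRNA, 19.6% in control). Receptors and kinases (9 of 25 in DF2 siRNA, 9 of 24 in control) and chromatin regulators (13 of 40 in DF2 siRNA, 14 of 42 in control) lie right of both lines, and membrane traffic genes (2 of 20 in DF2 siRNA, 1 of 20 in control) left of both.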

How the data were processed

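The measurements are 2 deposited peak lists, 1 for DF2 siRNA and 1 for control U2OS cells, each tied by the labels to both m6A immunoprecipitates of its condition. The submitters' processing notes name HISAT2 as a tool and hg38 as the genome build. Not given in the sources used here are the aligner's version, the peak caller, its filters and the annotation. Per the file headers, each peak has a fold enrichment (a ratio). The second deposited column is −log10 of an FDR for DF2 siRNA peaks but −log10 of a p-value for control peaks, per the file headers. The third deposited value is a score, whole and never below 3, with no stated meaning.

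Coordinates count from 1. Block sizes of minus-strand peaks were stored in transcript order and were reversed, after which the blocks of all 6422 DF2 siRNA and all 7635 control minus-strand peaks ended at the peak's end. As stored, 3562 and 3717 did. Overlap means at least 1 shared exonic base on the same strand. A peak with several labels was classed by stop codon first. A gap is the number of genomic bases between nearest ends of peaks of 1 gene. Of the 2373 gene names with a 3′ UTR-only peak, 2313 matched a RefSeq gene (GRCh38.p14) within 100000 bp, by symbol or older name. With 1 list per condition no test between conditions was made, and shares have 95% Clopper-Pearson intervals.

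The peaks, gene lists and naming rule were chosen with earlier results of these data known. Named were, per list, the 10 3′ UTR-only peaks of highest fold enrichment, the 8 highest without overlap, the 6 genes with most such peaks, the 5 widest, the 5 of highest score, the 6 largest gaps, the 6 highest and 6 lowest ratios at identical intervals, and up to 4 genes per gene list. Those at the microRNA hairpins and motif sites, and the genes found in 1 list only or on a stop codon peak, were named after their values were seen. Not every peak chosen by this rule is reported here. The DRACH search over whole peaks was planned and not run, since no genome sequence was used here. Overlap counting was tested on simulated data. Python 3.11.15, pandas 2.3.3, numpy 2.4.6, scipy 1.17.1 and matplotlib 3.10.9 were used.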

Additional observations from a re-analysis of the deposited data

How the results depend on the processing

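Of 67 values recomputed, 40 stayed within the 95% interval of the reported value and 27 moved beyond it. Some of the 40 could not move. They include the 9 values for chromosomes 1 to 22 and X only, which left out no peak. With equal list lengths the DF2 siRNA list was unchanged, so its 3′ UTR-only share, stop codon share and median fold enrichment were fixed too. A direction, above or below 1, was defined only for the fold enrichment ratios of DF2 siRNA to control. Of these ratios 0 turned direction, and the other values could not be judged this way. With peaks of at most 400 nt only, DF2 siRNA cells had a 3′ UTR-only share of 17.2%, an overlap of 32.3%, a stop codon peak in 7.81% of genes, a median fold enrichment of 10.7 and a median gap of 1800 bp. Control cells had, in that order, 18.2%, 27.6%, 9.42%, 10.5 and 3600 bp. That limit removes most stop codon peaks and wide partners by construction. With a p or FDR limit 100 times smaller, DF2 siRNA cells had a share of 11.6%, a stop codon peak in 38.4% of genes and a median fold enrichment of 22.3, and control cells had 12.4%, 43.4%, 24.5 and an overlap of 57.9%; the cause was not tested. With as many control peaks as DF2 siRNA peaks, those of highest fold enrichment, the overlap was 81.2% for DF2 siRNA and 73.1% for control peaks, the control share 13.7% and the control median 19.1. Weak control peaks are left out there by construction. Asking for a reciprocal overlap of 50% gave 71.4% in DF2 siRNA cells and 54.7% in control cells, and counting only 3′ UTR-only partners gave 70.5% in DF2 siRNA cells and 55.3% in control cells. Peaks labelled 3′ UTR alone were 14.1% of control peaks. At the 1304 best overlapping 3′ UTR-only pairs, in place of identical intervals, the ratio of DF2 siRNA to control was 0.750. The same value over overlapping pairs of all peaks was not computed, so 0.750 has no background beside it. The cause was not tested. Overlap without regard to strand, and leaving out peaks that overlap another peak of their list (chosen after seeing the data), moved no value beyond its interval. Keeping chromosomes 1 to 22 and X only left out no peak, so its values could not move. No paired analysis was possible because there is 1 list per condition and no result comes from a test; for the same reason no replicate could be left out. Unknown depth limits which weak peaks could be found in either list.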
